A study of Mus musculus with 6 samples.

Results

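The introns described here are the first introns longer than 100 and up to 20000 nt in mouse embryonic stem cells in which the splicing cofactor SON was knocked down. An intron was taken as a first intron where every transcript that lists it numbers it 1, and it had to be listed in all 4 total RNA libraries. By this rule 4080 of the 68322 introns listed in all 4 libraries (5.97%) were members, and they lay in 3917 genes. They are set against 22000 later introns, which are numbered above 1 in every transcript that lists them, lie in the same genes and have the same range of lengths. Later introns were listed in 3232 of those genes. The cells were of the E14 line, a line of mouse embryonic stem cells from a 129/Ola background. They received an siRNA against Son or a control siRNA by lipofection, and RNA was taken 24 h later. The 4 libraries of ribosomal RNA-depleted total RNA are 2 of the control siRNA and 2 of the Son siRNA (called the knockdown below), and 1 long-read cDNA library of each condition was sequenced on a Nanopore device. The labels do not say whether replicates were separate transfections, so p-values below measure the spread between these libraries, which may be technical. A knockdown by siRNA in 1 line leaves part of the Son mRNA in place.

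The first intron is the first to be made by RNA polymerase II, and its 5′ splice site lies close to the transcription start. The exon before it is bounded by the cap on its other side, where a cap-binding complex takes part in recognising the first splice site, whereas the exons before later introns have a 3′ splice site on that side. First introns are on average longer than later ones in mammals, follow exons rich in G and C, and often carry regulatory elements. SON is a large protein of nuclear speckles with an RS domain. It is known for helping the splicing of introns with weak splice sites, many of them in cell cycle genes, and for its role in embryonic stem cells.

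For introns whose response is described below, the spliced junction between exon 1 and exon 2 shows what the splicing machinery joins. The sequences were taken from the GENCODE M21 transcripts (GRCm38) that the tables name. Each gives 15 bases of exon 1 and 15 of exon 2, with the last 3 bases of exon 1 in capitals, since these bases pair with U1 RNA as part of the 5′ splice site. All of these junctions lie inside coding sequence. Of those shown, Inpp5k, Phip, Foxh1, Qars, Mllt6 and Gna11 had a first intron called lower in the knockdown, and Ybx3 and Ino80e one called higher. At Inpp5k the 5′ junction had under 10 split reads over the 4 libraries, so the join shown was rarely read.
Inpp5k: aaggtgatacagCAGgtggggatgcgtcac
Phip: cggagctgcgatCGGagctctacttcctca
Foxh1: ctgaaactggctCAGattatccgtcaggtc
Qars: gaggcggcgaccCAGgcacaccagattctg
Mllt6: tggccgtccaccAAGcttgctatggcatcg
Gna11: agctgctgctacTTGgcactggcgagagcg
Ybx3: agaagaaagttcTCGccaccaaagtccttg
Ino80e: tttcctgagcagCTGtgtccagctcctctg
An exon end in AG (the letters AG as the last bases of the exon, read on the strand of the gene) is the commonest form. It was found before 53.6% of the 4024 first introns matched to GENCODE M21 and before 58.3% of the 21919 matched later introns. Among the 18 matched first introns called lower in the knockdown, 11 (61.1%) followed such an exon. Intron sequence was not analysed here.

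The knockdown was visible at Son itself, which has no first intron among the members. Scaled to counts of spliced reads per library size (CPM), Son had 281 and 312 in the controls against 94.6 and 102 in the knockdown, a log2 fold change of -1.61 (SE 0.0869, edgeR adjusted p = 3.72e-10). All 10 embryonic stem cell markers were listed in all 4 libraries, with a summed level of 4245 to 4316 CPM in the controls and 3894 to 4246 in the knockdown. Of 8 fibroblast markers 1 was listed (summed level 1.63 to 1.86 in controls, 1.16 to 2.19 after knockdown), of 8 early differentiation markers 3 were, and none of 8 markers of 2-cell-like cells was. Of 8 primitive endoderm markers 4 were listed, with 1058 to 1112 CPM in the controls and 1135 to 1203 in the knockdown, while Gata6, Sox17, Pdgfra and Dab2 were not. The part of these cells in the results was not tested, and in such bulk samples fewer cells of a type and less RNA per cell cannot be told apart. The median first intron had 191, 135, 189 and 125 junction reads in control replicates 1 and 2 and knockdown replicates 1 and 2, of which 17, 14, 18 and 14 were unsplit, so the replicate 2 libraries were shallower in both groups.

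First introns differed from later ones in length and surroundings. The median first intron measured 2365.5 nt and the median later intron 1189 nt. The exon before them had a median length of 201 nt against 123 nt, and a median GC content in its last 100 nt of 63% against 50%. Of the 4024 matched first introns 57.0% lay between coding exons, 26.9% in the 5′ UTR, 15.7% in noncoding transcripts and 0.472% in the 3′ UTR, while 96.7% of the later introns lay between coding exons. Their transcripts began within 100 nt of the annotated gene start for 2970 introns and at an internal start for 1054. A gene held up to 3 such introns, with 186 genes holding 2 or more, and 31 introns were listed under more than 1 gene.

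Splicing efficiency is the share of reads at an intron's junctions that are split, that is, spliced across the intron. Averaged over introns, first introns were spliced less completely than later ones in every library. Their mean efficiency was 0.845 and 0.832 in the controls, then 0.839 and 0.824 in the knockdown. Later introns had 0.907 and 0.896 in the controls against 0.9 and 0.881 in the knockdown. The groups overlapped in both classes, and both replicate 2 libraries lay below both replicate 1 libraries. The difference between first and later introns was -0.0632 ± 0.00194 in the controls (SD, n = 2). The efficiency rose with intron number, from 0.839 at intron 1 to 0.875, 0.886 and 0.891 at introns 2, 3 and 4 and 0.907 from intron 5 on (control means). Later introns whose number differs between transcripts are left out of values by number, here and below. The numbers 2, 3, 4 and 5 on held 1883, 1366, 1004 and 7508 of the 22000 later introns. On medians the step was smaller: 0.926 at intron 1 and 0.937 to 0.941 at all later numbers.

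**Figure D1:**
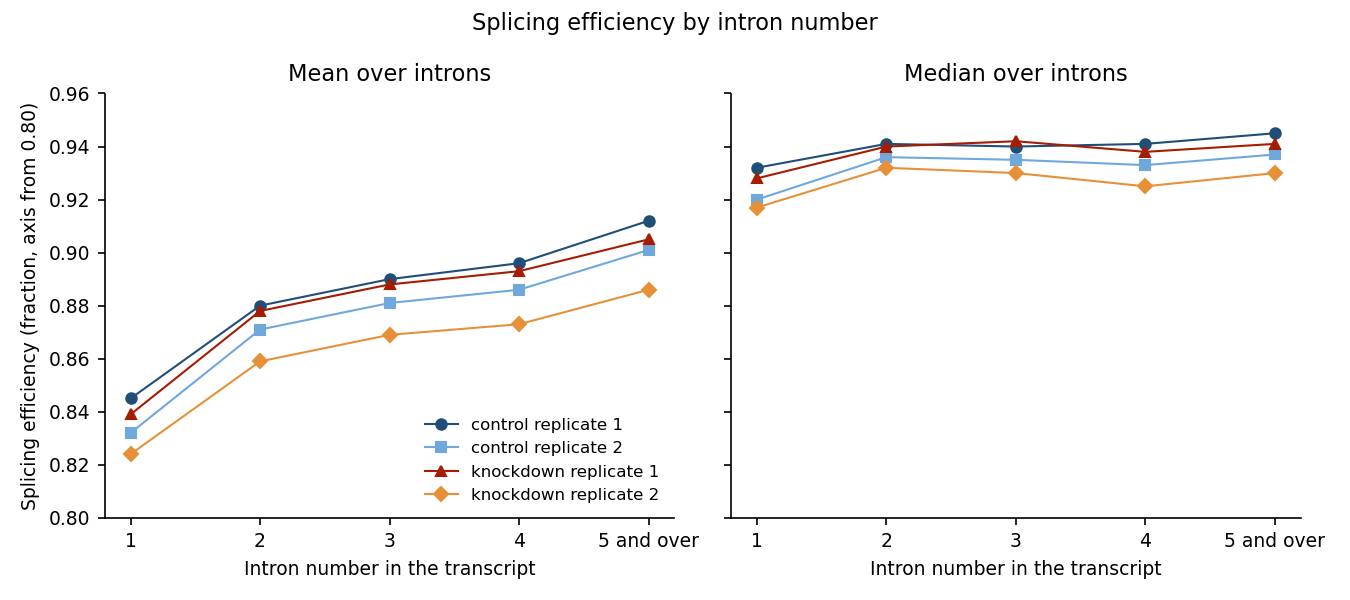
Splicing efficiency (y axis, a fraction on an axis that starts at 0.80) by intron number (x axis) in each of the 4 libraries, as the mean over introns on the left and the median on the right. Intron 1 lies lowest in every library on both panels, at a control mean of 0.839 and a control median of 0.926. Later introns whose number differs between transcripts are left out.

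The difference in means rested largely on a minority of poorly spliced first introns. In the controls 159 first introns (3.90%) had an efficiency under 0.1, against 61 later introns (0.277%), and 316 (7.75%) against 333 (1.51%) had one under 0.5. No split read in any library was found at 93 first and 17 later introns. Among introns with a control efficiency of at least 0.5, the difference between first and later introns was -0.0170 in the controls. Within coding sequence it was -0.00389, with 0.905 for 2293 first and 0.909 for 21194 later introns. In the 5′ UTR first introns were the higher ones in every library, with control means of 0.852 for 1081 first and 0.814 for 176 later introns. The 631 first introns of noncoding transcripts had a mean of 0.590, and the 93 of transcripts annotated as antisense had 0.108. Whether the tables counted reads by strand is not given in the sources used here, so unsplit reads of an overlapping gene on the other strand cannot be told apart from those of the antisense transcript. First introns of genes that had no later intron in the set were low as well, with a control mean of 0.711 for 698 introns against 0.865 for the other 3382. This lay largely in noncoding transcripts, with 0.351 for 198 introns against 0.699 in the other genes. In coding sequence the means were 0.886 and 0.908, and in the 5′ UTR 0.823 and 0.857.

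**Figure D2:**
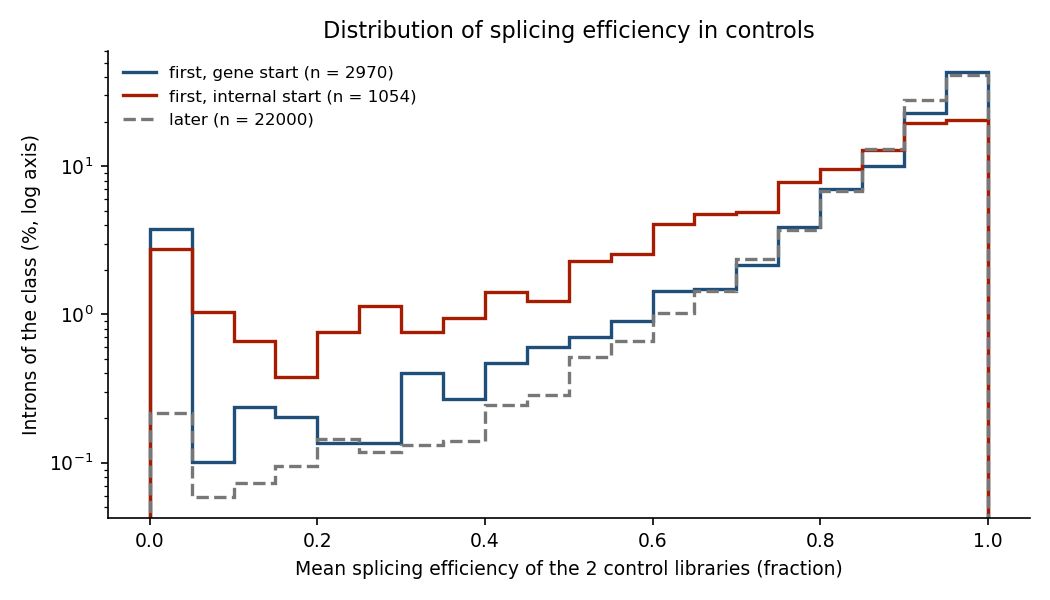
Share of introns (y axis, percent on a log scale) by mean splicing efficiency of the 2 control libraries (x axis, in steps of 0.05), for first introns of transcripts that begin at the gene start (n = 2970), first introns of transcripts with an internal start (n = 1054) and later introns (n = 22000). Both classes of first introns have a peak near 0 that is far smaller in later introns, and those with an internal start are spread over the middle range.

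Inside the same gene the order varied. In the 3178 genes with introns of both classes, the first intron was less efficiently spliced than the mean of the later ones in 42.7% and 44.8% of genes in the controls, then in 42.8% and 40.8% in the knockdown. The first intron minus that mean had a median over genes of 0.00853 ± 0.000784 in the controls (SD, n = 2), and a mean over genes of -0.0160. The first intron was lower in all 4 libraries in 878 genes (27.6%) and higher in all 4 in 1279 genes (40.2%). Efficiencies of later introns are skewed, with a control mean of 0.902 and a median of 0.939. A single intron can then lie above a mean of several in most genes without a difference between the classes. These shares and the median therefore cannot show which class was spliced better within a gene. In edgeR's quasi-likelihood test of the controls, with Benjamini-Hochberg adjustment over 2868 genes, 776 genes (27.1% called) had first introns with more unsplit reads per split read than their later introns and 631 (22% called) had fewer. This test sums reads over the introns of a class, so well covered introns weigh more in it. With DESeq2 1187 genes were called in all. With split and unsplit columns scaled separately 716 genes had more and 839 fewer, which turned the balance. Against length-matched later introns 396 had fewer, and against intron 2 alone 285 had more and 242 fewer.

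Split reads were listed for each junction separately, and at first introns the counts at both junctions differed more often. At 15.4% of first introns the 3′ junction had over 2 times as many split reads as the 5′ junction, and at 9.61% the reverse held, against 2.08% and 2.18% of later introns. The excess lay in introns with an internal start, where 49.8% had over 2 times as many split reads at the 3′ junction, against 3.16% of those at the gene start. Where both junctions agreed within 2-fold, first introns had 0.905 and 0.894 in the controls against 0.901 and 0.890 in the knockdown, and later introns 0.916 and 0.905, then 0.908 and 0.890. The difference in the controls was then -0.0105 in place of -0.0632. First introns of transcripts with an internal start had a mean control efficiency of 0.779, against 0.862 for those at the gene start.

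Unsplit reads at first introns were fewer at the 5′ than at the 3′ junction. The 5′ junction held 45.8% and 45.7% of the unsplit reads of 3767 first introns in the controls, then 46.4% and 44.5% in the knockdown. For 21141 later introns the shares were 50.8% and 50.5% in the controls against 50.3% and 50.6% in the knockdown, so the classes did not overlap in any library, while control and knockdown did within each class. The median first intron had 41.6% of its unsplit reads at the 5′ junction and the median later intron 50.4%. A 5′ share under 25% was found at 32.1% of first and 16% of later introns. The share was lowest after exons of up to 50 nt, at 37.6% in the controls, but it was also below that of later introns after exons over 400 nt, at 45.8% against 51.3%. After exons of 50 to 100 nt the pooled shares did not differ in that way, at 49.9% and 49.1%, while the median over those first introns was 40%. By number, later introns had 52.2% at intron 2, 47.8% at intron 3 and 53.4% at intron 4 in the controls, so that intron 3 came close to the first introns with an internal start, at 46.8%.

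**Figure D3:**
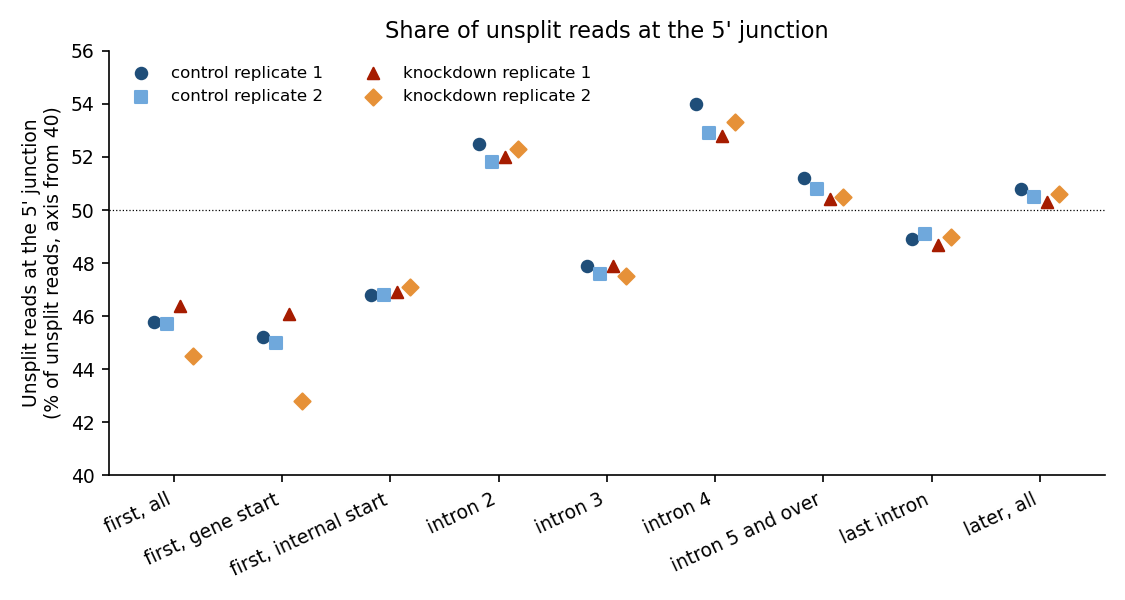
Share of unsplit reads that lie at the 5′ junction (y axis, percent on an axis that starts at 40) in each of the 4 libraries, for first introns, for both classes of transcript start among them, and for groups of later introns. The first introns lie between 42.8 and 47.1 percent and the later ones between 47.5 (intron 3) and 54.0 percent (intron 4).

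In the knockdown, first introns as a whole moved by less than the replicates differed. Their mean efficiency changed by -0.00700, from 0.839 ± 0.00951 to 0.832 ± 0.0108 (SD, n = 2 each). Without knockdown replicate 2 the change was 0.000646. Taken by replicate number, which the labels do not give as a pairing, the mean went from 0.845 to 0.839 and from 0.832 to 0.824. Later introns changed by -0.0115, from 0.902 ± 0.00757 to 0.890 ± 0.0134. By number, introns 2, 3 and 4 changed by -0.00703, -0.00708 and -0.00799, and those from intron 5 on by -0.0109. The difference between the classes within a library, which removes what a library shares, was -0.0619 and -0.0646 in the controls, compared with -0.0605 and -0.0569 in the knockdown. These pairs did not overlap: in the knockdown first introns were closer to later ones by 0.00453. The value was 0.00174 with length-matched later introns and 2.28e-05 against intron 2 alone. With 2 libraries a group and a value averaged over the members, no test was made.

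The loss of efficiency was largest in short introns of both classes. First introns of up to 300 nt had 0.795 and 0.780 in the controls, then 0.769 and 0.751 in the knockdown, and later introns of that length 0.913 and 0.901, then 0.883 and 0.862. Both knockdown libraries lay below both controls in this range, with changes of -0.0277 for 354 first and -0.0341 for 3394 later introns. Between 300 and 1000 nt the changes were -0.00829 and -0.0126, between 1000 and 5000 nt -0.00575 and -0.00485, and above that -0.00172 and -0.00424. Just inside the lower length limit, 92 first introns of up to 150 nt went from 0.757 to 0.717. Just outside it, 127 first introns of up to 100 nt went from 0.764 to 0.731. At the upper limit, 169 introns over 15000 nt stayed at 0.891 and 448 longer than 20000 nt had 0.892 and 0.891.

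The change went with the GC content of the exon before the intron among later introns, and was similar at each GC content among short first introns. Among later introns of up to 300 nt the change grew from -0.0107 after exons under 50% GC to -0.0424 at 50 to 60% and -0.0562 at 60% and over. Among first introns of that length it was -0.0319, -0.0270 and -0.0271 in the same order, over 61, 115 and 175 introns. After exons of 60% GC and over, first introns of that length had 0.867 and 0.855 in the controls against 0.844 and 0.823 in the knockdown, against 0.914 and 0.903, then 0.866 and 0.838, for 575 later introns. Between 300 and 1000 nt the pattern recurred, with a change of -0.0316 for later introns after such exons and of -0.00663 for 419 first introns, whose groups overlapped. The share called lower by the test described next was 3.11% of first and 8.24% of later introns after exons of 60% GC and over at up to 300 nt, and 0.260% and 3.47% between 300 and 1000 nt. After exons under 50% GC the order at up to 300 nt was the reverse, with 2 of 48 first introns (4.17%) and 1.74% of later ones. Neither the difference between these shares nor that between the changes was tested, and coding sequence makes up more of the later introns.

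**Figure D4:**
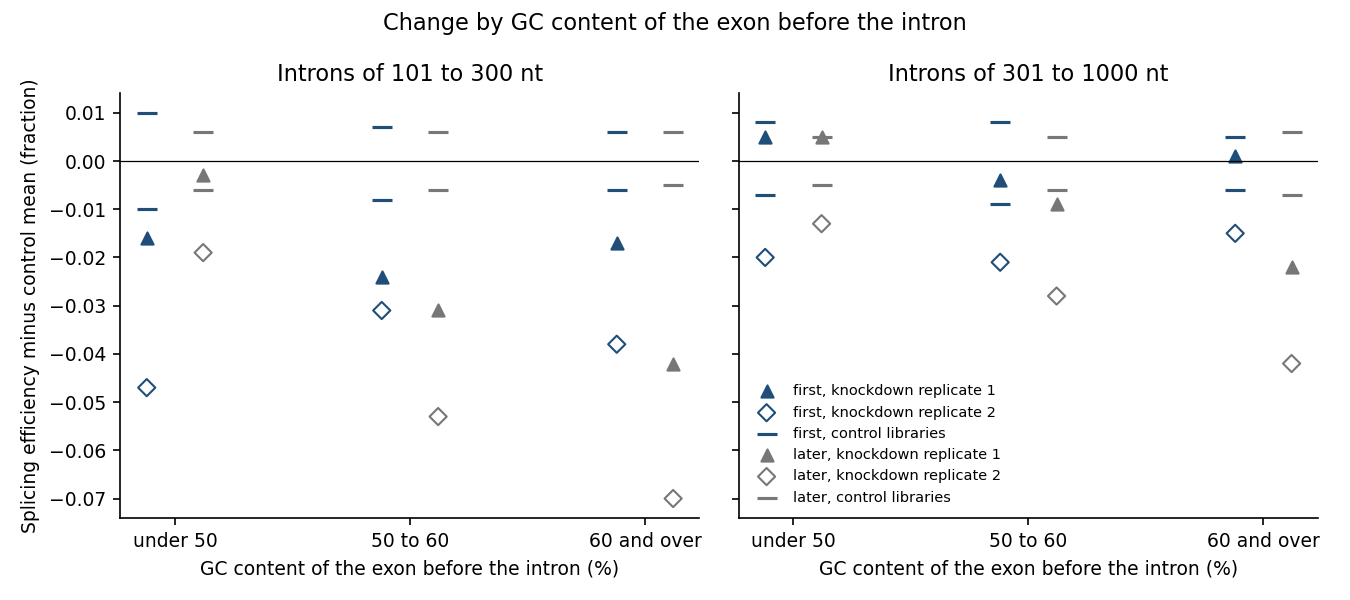
Splicing efficiency of each library minus the mean of the controls (y axis, a fraction) by GC content of the last 100 nt of the exon before the intron (x axis), for introns of up to 300 nt on the left and of 300 to 1000 nt on the right. Dashes are the control libraries and symbols the knockdown libraries. Later introns drop further at higher GC content, down to a mean change of -0.0562, and first introns do not.

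Single first introns were tested with edgeR's quasi-likelihood test of unsplit against split reads, with Benjamini-Hochberg adjustment over all 63309 introns tested, and called at an adjusted p under 0.05. Few first introns passed: 19 had a lower efficiency in the knockdown and 4 a higher one. Of all introns tested 1.71% were called lower and 0.0442% higher, while the 3632 first introns tested gave 0.523% and 0.110%. The 21101 later introns gave 276 called lower (1.31%) and 10 called higher (0.0474%). Among later introns with the same number in every transcript, the share called lower was 0.394% at intron 2 and 1.08% at intron 3. It was 0.52% at intron 4 and 1.3% from intron 5 on, so that introns 2 and 4 were like first introns in this. The other 448 first introns had under 10 unsplit reads (313) or under 10 split reads (135) over the libraries. The median log2 ratio of unsplit to split reads, knockdown over control, was 0.06 for first, 0.10 for later and 0.12 for all introns. At an unadjusted p under 0.05, 128 first introns (3.52%) were lower and 60 higher (1.65%), against 6.84% and 1.53% of later and 8.11% and 1.61% of all introns tested. Both knockdown libraries lay below both controls at 18.6% of first introns, 22.9% of later introns and 24.3% of all introns tested. They lay above both controls at 14.8%, 13.4% and 13.1%. By length, 2.90% of first introns of up to 300 nt were called lower against 5.60% of later ones, and the shares were 0.413% against 1.16% at 300 to 1000 nt, 0.129% against 0.219% at 1000 to 5000 nt and 0.479% against 0.112% above that. With at least 100 junction reads in every library, 0.509% of first and 1.35% of later introns were called lower in the same test. The count rests on both controls: without control replicate 1 it was 2 and without control replicate 2 it was 2, and later introns then gave 32 and 103. Without knockdown replicate 1 it was 27 and without knockdown replicate 2 it was 14. DESeq2 called 4 first introns lower and 63 later ones.

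Of the 19 first introns called lower, 9 were under 300 nt long and 5 over 5000 nt, and 12 of the 18 that matched GENCODE M21 lay inside coding sequence and 5 in the 5′ UTR. The median change among them was -0.143. At 11 of them the control efficiency was at least 0.9, and at 7 the knockdown efficiency was below 0.5, of which 2 (ENSMUSG00000120961 and Gm14411) were below 0.5 in the controls too.

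The largest falls with at least 50 junction reads in every library were mostly at short introns. Inpp5k encodes an inositol polyphosphate 5-phosphatase. Intron 1 of its internally started transcript (chr11:75537762-75538018, 257 nt, GRCm39) had an efficiency of 0.793 and 0.787 in the controls, then 0.408 and 0.429 in the knockdown, a log2 ratio of 2.38 (SE 0.608, edgeR adjusted p = 0.0139). Its 5′ junction had under 10 split reads over the 4 libraries and was not tested alone. The efficiency thus rests mostly on split reads at the 3′ junction, and these need not join this exon 1 to exon 2. Exoc3l encodes a protein related to an exocyst subunit. Its intron 1 in the 5′ UTR (chr8:106022339-106022537, 199 nt) had 0.789 and 0.842, then 0.5 and 0.388, a log2 ratio of 2.47 (SE 0.423, edgeR adjusted p = 2.89e-05), the smallest adjusted p among first introns called lower. Both knockdown values lay far below both controls at each of them. Cdkn1c encodes the cyclin-dependent kinase inhibitor p57. Its intron 1 in the 5′ UTR (chr7:143014454-143014589, 136 nt) had 0.884 and 0.867 in the controls against 0.530 and 0.567 in the knockdown, with 100 and 47 of the 118 and 68 unsplit reads in the knockdown at the 5′ junction (log2 ratio 2.54, SE 0.492, edgeR adjusted p = 0.000313). In the controls 25 of the 33 and 18 of the 25 unsplit reads of Cdkn1c lay there too. Cdc25c encodes the phosphatase that activates the mitotic kinase CDK1. Its intron 1 of 102 nt, the shortest called, had 0.675 and 0.693 in the controls, then 0.375 and 0.393 in the knockdown (log2 ratio 1.79, SE 0.422, edgeR adjusted p = 0.00559). None of its 4 later introns tested was called, and their mean was 0.934 in the controls and 0.929 in the knockdown. The gene ENSMUSG00000120961, which has no symbol in the table used, had 0.444 and 0.429, then 0.0926 and 0.159, at an intron of 2329 nt.

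A pair of longer first introns of the same group showed unsplit reads mostly at the 3′ junction. Mllt6 encodes a partner of MLL in leukaemia fusions. Its intron 1 (chr11:97554507-97555780, 1274 nt) had 0.735 and 0.718 in the controls against 0.456 and 0.497 in the knockdown (log2 ratio 1.55, SE 0.425, edgeR adjusted p = 0.0279), and 210 of the 229 unsplit reads of knockdown replicate 1 and 153 of the 154 of knockdown replicate 2 lay at the 3′ junction. In the controls 79 of 83 and 66 of 68 lay there as well. Of the 15 later introns of Mllt6, 3 were called lower too. Kank3 encodes a protein with ankyrin repeats that acts on the actin cytoskeleton. The exon before its intron 1 measured 46 nt, against 267 nt at Mllt6, and the 5′ share was lowest after exons of up to 50 nt. This intron of 5620 nt had 0.917 and 0.970, then 0.778 and 0.627, again with all but 3 of its knockdown unsplit reads at the 3′ junction. In the controls all 11 and 3 unsplit reads of Kank3 lay there. Of the 2 later introns of Kank3 1 was called, and their mean went from 0.618 to 0.350.

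A further group was spliced almost fully in the controls and less so in the knockdown. Phip encodes a bromodomain protein that binds methylated histone H3. Its intron 1 of 105 nt (chr9:82857200-82857304) had 0.988 and 0.984 in the controls, with 2 unsplit reads in each library, and 0.784 and 0.903 in the knockdown, with 24 and 9 (log2 ratio 3.68, SE 0.819, edgeR adjusted p = 0.00286). Foxh1 encodes the forkhead partner of SMAD2 and SMAD3 in Nodal signalling. Its intron 1 of 271 nt (chr15:76553534-76553804) had 0.973 and 0.982, then 0.9 and 0.864 (log2 ratio 2.47, SE 0.546, edgeR adjusted p = 0.00256). Qars encodes glutaminyl-tRNA synthetase. Its intron 1 of 183 nt (chr9:108385399-108385581) had 0.982 and 0.973 in the controls, then 0.869 and 0.899 in the knockdown. Groups did not overlap at these introns. Calca, the gene of calcitonin and CGRP, had 0.986 and 0.993, then 0.899 and 0.924, at an intron of 966 nt. Gna11, a G protein alpha subunit, had 0.976 and 0.967, then 0.886 and 0.913, at an intron of 9527 nt (chr10:81371099-81380625). Its unsplit reads in the knockdown lay mainly at the 5′ junction, with 36 of 40 and 11 of 15. In the controls 9 of 10 and 4 of 8 lay there. The other first introns called lower were those of Mettl26 and Gm14411, which had under 50 reads in a library, and of Stx12, Bod1l, Ccdc22, Bckdha and Psmb6, whose changes ran from -0.0607 to -0.00826. Psmb6, a catalytic subunit of the proteasome, had the smallest change, from 0.996 and 0.994 to 0.989 and 0.984 over 2654 to 5357 reads.

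**Figure D5:**
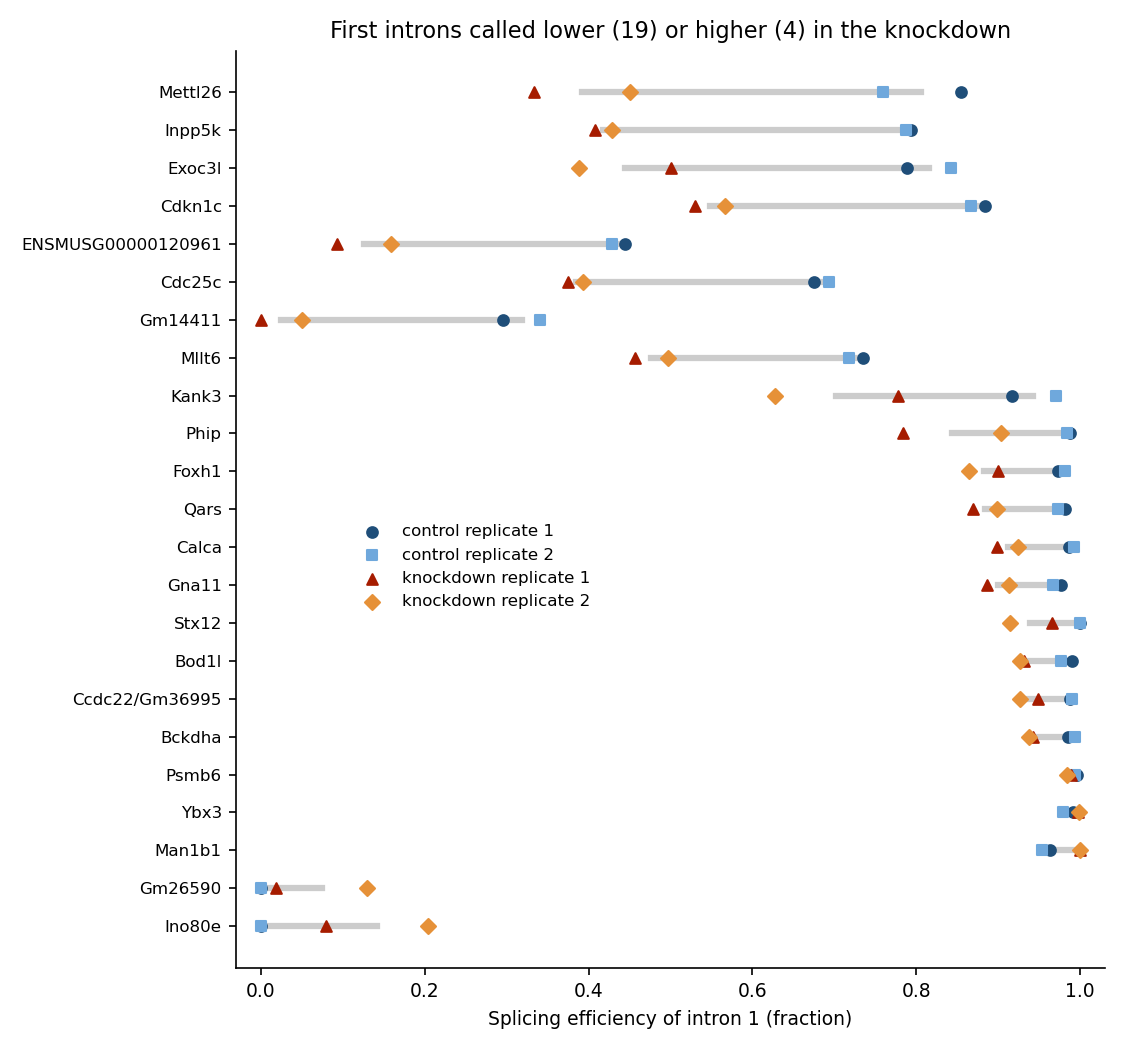
Splicing efficiency of intron 1 (x axis, a fraction) in each of the 4 libraries for the 19 first introns called lower and the 4 called higher in the knockdown, ordered by the size of the change, with a grey bar between the group means. The changes called lower run from -0.415 to -0.00826, and the 2 introns at the bottom have no split read in the controls.

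Leaving out libraries or changing the tool took most single introns below the threshold. Among the 23 called in either direction, 2 (Exoc3l and Bckdha) were still called without control replicate 1, 3 (Exoc3l, Cdkn1c and Ino80e) without control replicate 2, 11 without knockdown replicate 1 and 14 without knockdown replicate 2. Exoc3l alone was called under all 12 alternatives, with a largest adjusted p of 0.0495. Bckdha, the E1 alpha subunit of branched-chain keto acid dehydrogenase, and Cdkn1c were called under 10 of 12. Bckdha had an efficiency of 0.985 and 0.994 in the controls against 0.942 and 0.937 in the knockdown at an intron of 16806 nt. No direction changed under any of them.

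The 4 first introns called higher were of different kinds. Ybx3 encodes a cold shock domain protein that binds RNA and DNA, and its intron 1 of 3451 nt (chr6:131361530-131364980) went from 0.991 and 0.979 to 0.997 and 0.999 (log2 ratio -2.28, SE 0.661, edgeR adjusted p = 0.0432). Man1b1, an alpha-mannosidase of the endoplasmic reticulum, had 6 unsplit reads in each control library and none in the knockdown, out of 140 and 110 reads. Ino80e encodes a subunit of the INO80 chromatin remodeller. Intron 1 of one of its transcripts (chr7:126461190-126461445, 256 nt) had no split read among 114 and 82 in the controls, and 6 of 76 and 20 of 98 in the knockdown (edgeR adjusted p = 0.000868). Gm26590, annotated as antisense, had none of 104 and 78 in the controls and 2 of 108 and 14 of 108 in the knockdown. Split reads here are summed over both junctions, so a read spliced across the intron can be counted at each. The numbers of separate spliced reads at Ino80e and Gm26590 are therefore smaller than these counts. For these introns with a count of 0 in a group no fold change is given.

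The test of whether first and later introns of the same gene changed differently gave 2 of 2868 genes (0.0697% called), both with a relative fall in unsplit reads at the first intron, and 0 (0.0% called) with a relative rise. At an unadjusted p under 0.05 there were 113 and 63 genes, and DESeq2 called 0. Zfp512b, a zinc finger gene, had a first intron of 1428 nt (chr2:181232779-181234206) at 0.931 and 0.860 in the controls, then 0.937 and 0.923 in the knockdown, while its 3 later introns together went from 0.861 and 0.886 to 0.562 and 0.512. The log2 difference was -3.15 (SE 0.713, edgeR adjusted p = 0.0430). The other gene was Ino80e, with the first intron above and a later one at 0.915 and 0.856, then 0.910 and 0.856. Both calls were lost without control replicate 1 (adjusted p 0.681 for Ino80e and 0.0830 for Zfp512b), control replicate 2 (0.160 and 1.00) and under DESeq2 (0.227 for both), the replicate block (0.151 for both) and separate scaling of split and unsplit columns (0.0726 for both). That of Zfp512b was also lost without knockdown replicate 1 (0.0695) and without knockdown replicate 2 (0.237), and neither was called with the 3′ junction alone (0.345 for Ino80e and 0.101 for Zfp512b).

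Genes with a first intron called lower often had fewer spliced reads as well. Of the 18 such genes that could be tested, 10 (55.6%) had fewer spliced reads in the knockdown and none had more, against 6.76% and 1.96% of all 9474 genes. Among genes with a later but no first intron called lower, 103 of 146 (70.5%) had fewer, and among genes with first introns and no call 3.99% had. Split reads enter both measures, so the measures are not independent. With reads of introns numbered above 1 only, of any length, 6 genes had fewer. The number of these genes tested in that way and the share over all genes are not given here. The count of 6 therefore cannot be set against 55.6% or 6.76%. Kank3 had 33.9 and 40.4 CPM in the controls against 12.8 and 12.6 in the knockdown, a log2 fold change of -1.56 (SE 0.155, edgeR adjusted p = 7.43e-07). Foxh1 had 38.1 and 39.9, then 15.1 and 14.1, a log2 fold change of -1.44 (SE 0.144, edgeR adjusted p = 8.56e-07). Exoc3l had 92.1 and 103, then 51.2 and 50.4, and Qars 277 and 280, then 184 and 179. The groups were apart in each of these. Mllt6 had 224 and 244, then 247 and 254, with both knockdown libraries above both controls (edgeR adjusted p = 0.648). Cdc25c had 39.9 and 35.7, then 38.6 and 35.4, with overlapping groups.

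Later introns were tested in 14 of the 19 genes and called lower in 5 (35.7% of the 14), which is 3.27% of the 153 genes with a later intron called lower: Gna11, Inpp5k, Kank3, Mllt6 and Ccdc22, the last sharing its first intron with the overlapping Gm36995. In all, 8 of the 80 later introns tested in these genes were called lower (10%), against 1.31% of all 21101 later introns tested. Genes with a later intron in the set numbered 3232, beside the 153 with such a call. These differences were not tested. In the long-read libraries, with 3080426 control and 1874851 knockdown reads and no replicates, 16 of the 19 genes had at least 20 reads, and 11 of the 16 had a lower level in the knockdown library, Bckdha among them by a difference that 3 digits do not show. Of all 9616 genes with at least 20 reads 51.8% were lower. Foxh1 had 35.1 CPM (Wilson 95% interval 29.0 to 42.3) in the control and 14.9 (10.3 to 21.6) in the knockdown library, and Qars 99.7 (89.1 to 111) and 72.0 (60.8 to 85.2). The intervals cover counting error only.

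None of the first introns in 7 gene lists was called in either direction by edgeR. Of all first introns tested 0.523% were called lower and 0.110% higher, so lists of this size could hold no call without differing from other first introns. At an unadjusted p under 0.05, 1 of 10 was higher among SR proteins and their kinases, 1 of 15 was lower and 2 were higher among U1, U2 and 3′ splice site factors, 1 of 8 was lower among the promoter-proximal factors of RNA polymerase II, and the other 4 lists had 0. The shares at that threshold were 3.52% lower and 1.65% higher over first introns and 8.11% and 1.61% over all introns. Of 14 genes listed as dependent on SON for splicing, 5 had a member, and their control efficiencies were 0.938 to 0.998. Tubg1, the gamma-tubulin gene, had 0.953 and 0.988 in the controls, then 0.958 and 0.942 in the knockdown. Hdac1, a histone deacetylase, had 0.998 and 0.998, then 0.994 and 0.998. The groups overlapped or touched at both, as they did at Anapc11. Haus7, a subunit of the augmin complex of the spindle, had 0.984 and 0.967, then 0.954 and 0.941, on 2 to 3 unsplit reads a library. Aurkb, the gene of the mitotic kinase Aurora B, had 0.944 and 0.931, then 0.898 and 0.919. Both knockdown libraries lay below both controls at Haus7 and Aurkb (edgeR adjusted p = 0.876 and 0.833), and the list's median log2 ratio of 0.76 was the highest of the 7. Among 7 pluripotency genes with a member, Klf2 had 0.980 and 0.980 in the controls against 0.962 and 0.978 in the knockdown, the lowest p in the list at 0.0536 before adjustment (edgeR). Zfp42, the gene of the pluripotency marker REX1, had 0.818 and 0.801, then 0.831 and 0.753. The 10 first introns of SR protein genes and their kinases changed by -0.118 to 0.0375. The largest of these falls was at Clk2, a kinase of SR proteins, with 0.468 and 0.481, then 0.356 and 0.357 (edgeR adjusted p = 0.933). Srsf2 had 0.902 and 0.911, then 0.954 and 0.934 (edgeR adjusted p = 0.226).

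Among 15 first introns of genes for U1, U2 and other factors of splice site recognition, 1 was lower and 2 were higher at an unadjusted p under 0.05. Sf3a2, a subunit of the U2 particle, had 0.935 and 0.913 in the controls, then 0.880 and 0.845 in the knockdown (edgeR adjusted p = 0.397). U2af2, which binds the polypyrimidine tract, had 0.941 and 0.952, then 0.975 and 0.967 (edgeR adjusted p = 0.215). The 8 tested first introns of genes for promoter-proximal factors of RNA polymerase II included Supt6, an elongation factor, at 0.988 and 0.983, then 0.977 and 0.940 (edgeR adjusted p = 0.260), and Polr2a, the largest subunit of the polymerase, at 0.915 and 0.926, then 0.937 and 0.930. In the list of H3K4 methyltransferase genes 9 of 64 later introns tested were called lower, in Kmt2b and Kmt2d, and 0 of 6 first introns. The shares called lower were 1.31% of all later and 0.523% of all first introns tested. With 6 first introns the 0 therefore shows no contrast with the later ones. Kmt2b had 0.957 and 0.964 at its first intron in the controls against 0.952 and 0.913 in the knockdown. Kmt2d has 2 first introns in the set: the one of 446 nt had 0.855 and 0.824, then 0.656 and 0.717, the largest fall in the list (-0.153, edgeR adjusted p = 0.549), and the one of 4256 nt had 0.766 and 0.650, then 0.893 and 0.684. The 6 first introns of p53 target genes changed by -0.0112 to 0.0292. The median log2 ratio of the members in each list lay between -0.18 and 0.76, beside 0.12 over all introns tested.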

How the data were processed

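Per-intron tables of 4 total RNA libraries were deposited with, per the file headers, counts of spliced and of unspliced reads for each intron's 5′ and 3′ junction, and a splicing efficiency score, which the authors' files give as a fraction from 0 to 1 and which equalled the split share of these counts in every line. No junction had under 10 reads. Gene counts of the 2 long-read libraries were deposited as whole reads. The genome GRCm39, SAMtools and minimap2 are named in the submitters' processing notes. How reads were aligned and stranded for the intron tables is not given in the sources used here.

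Introns were merged by position, and counts of both junctions were summed. A read spliced across an intron is split at both of its junctions and can enter this sum at each. The split counts are therefore not numbers of separate reads, though the test took them as counts. Ratios of unsplit to split reads were tested with edgeR 4.0.16 (R 4.3.3, quasi-likelihood, a term per library, no replicate block, a minimum of 10 reads of either kind summed over libraries, Benjamini-Hochberg over all introns or genes tested). A log2 ratio above 0 means more unsplit reads in the knockdown. Spliced reads per gene are split reads at 5′ junctions (TMM). Mean efficiencies use all members, and the read minimum was tried as an alternative. Annotation and exon sequence come from GENCODE M21 (GRCm38), matched by transcript, intron number and equal length for 25943 of 26080 introns of both classes. Its positions differ from those of the tables and are not printed.

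Members and gene lists were chosen with earlier results of these data known. Named introns were those called with at least 50 junction reads in every library and groups that did not overlap, taking up to 12 falls and up to 5 rises by size, plus genes called in the within-gene test, and others where a count was small. On simulated counts for 62812 introns the test recovered 74% of introns changed by a log2 ratio of 2 and 97% of those changed by 3. Each of these changes was set at 100 introns. How many reads those introns had and what spread between libraries was simulated are not given here. These percentages therefore cannot be taken as the share of such changes that the test would find among first introns. DESeq2 1.42.0, other filters, each junction alone, the replicate block and leaving out each library were run as alternatives.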

Additional observations from a re-analysis of the deposited data

How the results depend on the processing

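Counts of first introns called lower, called higher, and of later introns called lower were 2, 0 and 49 with the 5′ junction alone, 4, 0 and 78 with the 3′ junction alone, and 4, 1 and 63 with DESeq2. With at least 100 junction reads in every library 11 first introns were called lower and 2 higher, and with split and unsplit columns scaled separately 7 were called higher. That scaling moved the median log2 ratio of all introns from 0.12 to -0.01, and that of first introns from 0.06 to -0.08. The share called lower was smaller for first than for later introns under each of the 12 alternatives. None of these took intron 2 alone as the later intron, and in the main setting 0.394% of second introns were called lower, against 0.523% of first introns. Genes with a relative fall at the first intron in the knockdown numbered 0 with the 5′ junction, the 3′ junction, separate scaling, DESeq2 or only intron 2 as the later intron, and 1 with at least 100 reads or length-matched later introns. In controls, genes with first introns less unsplit numbered 380 with the 5′ junction, 369 with the 3′ junction, 396 with length-matched later introns and 242 against intron 2 only, where 285 were more unsplit, and 461 were more unsplit with at least 100 reads.

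The difference in mean efficiency between first and later introns in controls was -0.106 at the 5′ and -0.0972 at the 3′ junction, -0.0430 with a minimum of 10 split and 10 unsplit reads, -0.0327 with at least 100 reads, -0.0603 with length-matched and -0.0367 with only second introns, -0.0132 as a median, -0.0178 over pooled reads and -0.116 up to 1000 nt. In settings chosen after seeing the data it was -0.0368 in genes with a later intron, -0.00389 in coding sequence and -0.0105 with junctions that agreed within 2-fold. Its change in the knockdown was 0.00692 at the 5′ junction, 0.00174 with length-matched and 2.28e-05 with only second introns, 0.0022 as a median, 0.00168 over pooled reads and 0.00705 with agreeing junctions. The 5′ share of unsplit reads of first introns was 47.2% at 100 or more unsplit reads. Of genes with a first intron called lower, 6 had fewer spliced reads by DESeq2 and 6 by later introns only. The causes were not tested.

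Leaving out each library in turn gave 2 to 27 first introns called lower, 0 to 5 called higher and 32 to 370 later introns called lower. It gave 0 to 4 genes with a relative fall at the first intron, 498 to 814 genes with first introns more unsplit in controls and 295 to 640 with fewer, and 5 to 10 host genes with fewer spliced reads. The change of first introns in the knockdown ranged from -0.0147 without knockdown replicate 1 to 0.000646 without knockdown replicate 2, which turned its direction. The replicate numbers share no batch in the labels, and deviations of same-numbered libraries did not correlate (-0.000999 over 3632 first introns). Such a correlation leaves out an offset shared by all introns, and both replicate 2 libraries lay below both replicate 1 libraries in mean efficiency. It therefore cannot decide whether the numbers form pairs. A replicate block gave 28 first introns called lower, all 19 of the above among them, and 0 genes in the within-gene test of the knockdown. Depth was a median of 14 to 18 unsplit reads per first intron and library, and no simulation was made of changes under a log2 ratio of 2.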
